A study of Mus musculus with 6 samples.

Results

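The mRNAs of 10 astrocyte marker genes were followed in RNA from mouse synaptoneurosomes, a filtered fraction of brain homogenate rich in pinched-off synapses. The genes were taken by name from a table of 21958 protein-coding genes, and all 10 were present and passed the filter on low counts that left 12255 genes for testing. They were the glutamate transporters Slc1a2 and Slc1a3, glutamine synthetase Glul, the lipid carrier Apoe, the metabolic enzymes Aldoc and Aldh1l1, the filament protein Gfap, the calcium-binding protein S100b, the water channel Aqp4 and the gap junction protein Gja1. RNA came from hippocampus and the adjacent cortex of FVB mice aged 6 to 8 weeks, and the labels name no transgene or mutation. One group, total RNA, held 3 libraries from unstimulated synaptoneurosomes. The other group, polyribosomal RNA, held 3 libraries from synaptoneurosomes given 50 µM NMDA with 10 µM glutamate for 30 s, then 120 µM of the NMDA receptor antagonist APV, and incubated for 20 min. Stimulation and fraction changed together. In the study's methods, unstimulated controls were kept on ice with cycloheximide, a protein synthesis inhibitor, and stimulated samples were incubated warm. The effects of stimulation, fraction and these conditions on a marker cannot be told apart. Per the study's methods each preparation was pooled from several animals and split into aliquots, and the libraries with the same replicate number are treated as 1 preparation where pairs are named.

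Astrocytes send fine processes around synapses, where they take up released glutamate, convert it to glutamine and return it to neurons. They also buffer water and ions, supply lipid particles and form a network through gap junctions. Some astrocyte mRNAs travel into these fine processes and can be translated there, and torn-off astrocyte processes remain in a synaptoneurosome preparation beside nerve terminals and spines. A polyribosome is an mRNA carrying several ribosomes, so its RNA stands for transcripts engaged in translation.

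Counts on protein-coding genes ranged from 5294482 to 7361580 in the polyribosomal libraries and from 1044955 to 3738022 in total RNA, with total RNA replicate 3 the shallowest. Even there, each marker had at least 186 counts, the value of Aldh1l1. The 10 mRNAs together took 5.24%, 5.19% and 5.83% of all counts on polyribosomes and 4.02%, 4.12% and 4.69% in total RNA. The widest of the exact 95% binomial intervals, that of total RNA replicate 3, ran from 4.65% to 4.73% and covers counting error only. Every polyribosomal share lay above every total RNA share, with means of 5.42% ± 0.35 and 4.28% ± 0.36 (SD, n = 3 each). In bulk RNA of this kind, fewer astrocyte processes and less RNA per process cannot be told apart.

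Levels are given below as CPM, counts scaled to a common library size with TMM factors, and differences as log2 fold changes of polyribosomal over total RNA with their standard error (SE). All 10 markers had a positive log2 fold change, from 0.10 for Aqp4 to 1.14 for Apoe, with a median of 0.63 beside 0.00 for all genes tested. The CPM of 9 of the 10 did not overlap between the groups, against 17.4% of all genes tested in that direction, and all 10 were higher in each of the 3 pairs, against 30.2%. As plain shares of counts, without TMM scaling, Slc1a2 and Gja1 overlapped too. By these shares not every marker was higher in each pair. Aqp4 was lower on polyribosomes in pair 1 (0.0519% against 0.0547%) and pair 2 (0.0648% against 0.0680%). Slc1a2 was lower in pair 3 (2.79% against 2.98%). The share without overlap was 31.4% among the 780 genes at least as abundant in CPM as the least abundant marker. At an adjusted p under 0.01, the study's threshold, edgeR's quasi-likelihood test without pairing called 0 of the 10 markers, against 0.71% of all genes called higher, 2.36% called lower and 1.79% of the 780 abundant ones called higher. At an unadjusted p under 0.05 it had 7 of the 10, all higher, against 15.4% of all genes. At an adjusted p under 0.05 it called 6 of the 10, all higher, against 6.52% of all genes and 15.1% of the abundant ones.

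With the preparation as a block in the same test, 7 of the 10 markers passed the threshold of 0.01, all higher, against 11.8% of all genes tested and 30% of the 780 abundant ones, while 13.2% of all genes were lower. The 7 were Slc1a3, Glul, Gfap, S100b, Aldh1l1, Aldoc and Apoe. DESeq2 without the block called 3, Gfap, Aldh1l1 and Aldoc, against 3.31% of its genes. Without a filter on low counts edgeR called 5, Glul, Gfap, Aldh1l1, Aldoc and Apoe, against 2.84% of all genes. Left out in turn, each library left 0 markers past the threshold, except total RNA replicate 3, without which Aldoc and Apoe passed, against 0.483% of all genes.

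**Figure D1:**
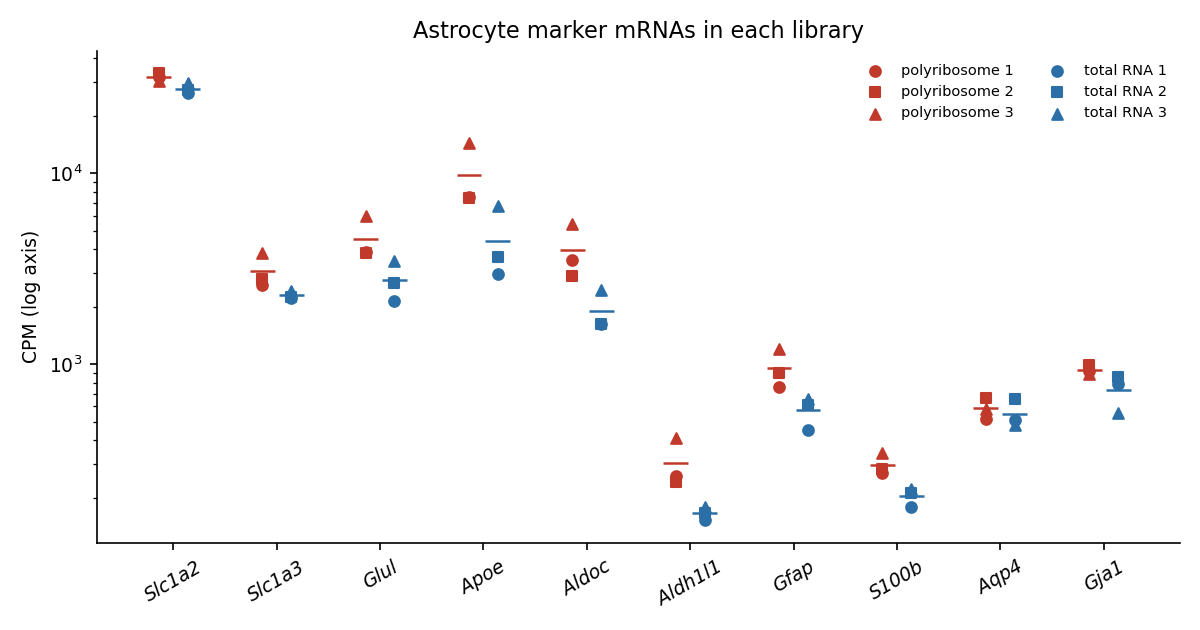
Level of each astrocyte marker in CPM on a log axis, with 1 point for each library and a horizontal bar at the mean of the 3 libraries of a group. Polyribosomal libraries are red and total RNA libraries are blue, the marker shape gives the preparation, and Aqp4 is the gene whose groups overlap.

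The 2 glutamate transporters clear glutamate from the synaptic cleft, Slc1a2 (GLT-1) carrying most of the uptake in the adult forebrain and Slc1a3 (GLAST) being its relative in the same cells. Slc1a2 lies on chromosome 2 of GRCm38 (102658659 to 102790784, plus strand) and Slc1a3 on chromosome 15 (8634124 to 8710764, minus strand). Their coding sequences (Gencode vM21, GRCm38) were 63.8% identical over 1599 aligned bases, and the longest run without a difference was 17 bases, short against reads of 100 bases. The stretch around that run is shown because it holds the longest identical run of both genes. Differing bases are in capitals, and positions count from 1 at the start codon, 1160 to 1216 in Slc1a2 and 1166 to 1222 in Slc1a3.
Slc1a2: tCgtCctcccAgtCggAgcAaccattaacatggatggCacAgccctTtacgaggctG
Slc1a3: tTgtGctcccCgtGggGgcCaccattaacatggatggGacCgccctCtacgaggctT
These 57 bases differ at 10 places. Slc1a2 transcripts carry a 3′ UTR of 9250 bases after a coding sequence of 1719, and 0.592% of the 100-base stretches of Slc1a2 exons also occur in the antisense gene Gm13872.

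Slc1a2 was at 31912, 33477 and 30311 CPM on polyribosomes, against 26250, 27367 and 29783 CPM in total RNA. The groups did not overlap, but the lowest polyribosomal library was close to the highest total RNA library. It had a log2 fold change of 0.20 (SE 0.19, adjusted p = 0.507 in edgeR), and it stayed short of the threshold with the block (adjusted p = 0.270). As a plain share of counts, without TMM scaling, it took between 2.79% and 3.25% on polyribosomes and between 2.82% and 2.98% in total RNA, so these shares overlapped. Slc1a3 was at 2587, 2802 and 3831 CPM on polyribosomes, against 2216, 2251 and 2405 CPM in total RNA. Polyribosome replicate 3 stood above the rest, and the groups did not overlap. It had a log2 fold change of 0.42 (SE 0.19, adjusted p = 0.141), and with the block 0.40 (adjusted p = 0.00943). Slc1a1, the neuronal glutamate transporter, averaged 241 ± 30.0 CPM (SD, n = 3) in the polyribosomal group and 213 ± 31.1 in total RNA, with a log2 fold change of 0.17 (adjusted p = 0.546).

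Glul (chromosome 1, 153899944 to 153909723, plus strand) makes glutamine from glutamate and ammonia in astrocytes. Its level was 3867, 3804 and 5950 CPM on polyribosomes, against 2137, 2662 and 3459 CPM in total RNA. The groups did not overlap, and replicate 3 was the highest in both. On the log2 scale the difference was 0.72 (SE 0.23, adjusted p = 0.0464), and with the block it passed the threshold at the same size (adjusted p = 4.00e-06). Of its 100-base exon stretches, 2.75% also occur in another gene, chiefly the pseudogene Glns-ps1. Teddm2, a gene of the table on the opposite strand, overlaps Glul by 285 bases, and the strand setting of the counting is unknown. Teddm2 averaged 38.7 CPM in the polyribosomal group and 5.89 in total RNA (log2 fold change 2.66, adjusted p = 6.81e-04). Its part in the value of Glul was not tested.

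Among 17 other genes of glutamate and glutamine handling, 0 passed the threshold, and the median log2 fold change was 0.15. At an unadjusted p under 0.05, 6 were higher and 2 lower, against 15.4% and 17.1% of all genes. With the block 4 were higher and 2 were lower, against 11.8% and 13.2% of all genes. Pcx, pyruvate carboxylase, which refills the pool of carbon for glutamine in astrocytes, had a log2 fold change of 0.82 (adjusted p = 0.0253), and the neutral amino acid transporter Slc1a5 had 0.69 (adjusted p = 0.106). At the lower end were the enzymes of GABA synthesis in inhibitory neurons, Gad2 with -0.66 (adjusted p = 0.0198) and Gad1 with -0.39 (adjusted p = 0.131).

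Apoe (chromosome 7, 19696109 to 19699166, minus strand) encodes the main protein of the lipid particles that astrocytes secrete. It was at 7469, 7431 and 14415 CPM on polyribosomes, against 2959, 3656 and 6698 CPM in total RNA. The groups did not overlap, although total RNA replicate 3 came close to the lower polyribosomal libraries. Its log2 fold change of 1.14 was the largest of the 10 (SE 0.31, adjusted p = 0.0272 in edgeR and 0.0976 in DESeq2). The ratio within pairs was much steadier than the levels, at 1.34, 1.02 and 1.11 on the log2 scale, and with the block the adjusted p was 4.56e-12. With each library left out in turn, without a block, the log2 fold change of Apoe ran from 0.75 without polyribosome replicate 3 (adjusted p = 0.0795) to 1.56 without total RNA replicate 3, the only one of these fits in which it passed the threshold (adjusted p = 0.00748). The highest adjusted p was 0.129, without total RNA replicate 1. Without polyribosome replicate 3 and without total RNA replicate 1, Aldoc and not Apoe had the largest log2 fold change of the 10. The other carriers, receptors and transporters of brain lipoproteins, 16 genes tested, had 0 past the threshold and a median of 0.48. With the block 7 were higher and 0 lower, against 11.8% and 13.2% of all genes. At their upper end were the sterol-sensing receptor Nr1h3 (0.94, adjusted p = 0.138) and the second abundant apolipoprotein of astrocytes, Clu (0.90, adjusted p = 0.0202). Nr1h3 was scarce, with 32, 17 and 19 counts on polyribosomes and 6, 8 and 1 in total RNA. Its groups overlapped in CPM. At the lower end stood the receptor Vldlr (-0.16, adjusted p = 0.631) and lipoprotein lipase Lpl (0.12, adjusted p = 0.659). Clu averaged 3706 ± 1162 CPM in the polyribosomal group and 1992 ± 331 in total RNA. The ratio of Apoe to Clu counts overlapped between the groups (log2 difference 0.29 ± 0.25 over 3 pairs).

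Aldoc (chromosome 11, 78322968 to 78327781, plus strand) is the aldolase of astrocyte glycolysis, and Aldoa is the form of most other cells. Their coding sequences were 75.9% identical over 1091 aligned bases, with a longest identical run of 26 bases. The stretch around it is printed for the same reason as above, with differing bases in capitals (positions 500 to 565 in Aldoc and 662 to 727 in Aldoa).
Aldoc: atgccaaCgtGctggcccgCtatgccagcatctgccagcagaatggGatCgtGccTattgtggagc
Aldoa: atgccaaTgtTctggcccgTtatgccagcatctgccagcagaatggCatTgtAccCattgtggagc
These 66 bases differ at 7 places, and no 100-base stretch of Aldoc exons occurs in another gene.

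Aldoc was at 3502, 2895 and 5427 CPM on polyribosomes, against 1628, 1618 and 2432 CPM in total RNA. The groups did not overlap, and preparation 3 was the highest in both. This gave a log2 fold change of 1.06 (SE 0.25, adjusted p = 0.0142 in edgeR and 2.63e-04 in DESeq2), and 1.03 with the block (adjusted p = 1.10e-10). With each library left out in turn, without a block, the log2 fold change of Aldoc ran from 0.76 without polyribosome replicate 3 (adjusted p = 0.0318) to 1.28 without total RNA replicate 3, the only one of these fits in which it passed the threshold (adjusted p = 0.00889). The highest adjusted p was 0.0850, without total RNA replicate 2. Aldoa was at 626, 677 and 1091 CPM on polyribosomes against 405, 440 and 593 in total RNA, with a log2 fold change of 0.74 (adjusted p = 0.0406). The ratio of Aldoc to Aldoa counts was 5.59, 4.28 and 4.98 on polyribosomes and 4.02, 3.68 and 4.10 in total RNA. These ratios did not overlap, and the log2 difference was 0.32 ± 0.14 over 3 pairs.

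Aldh1l1 (chromosome 6, 90486427 to 90600203, plus strand) is a cytosolic folate enzyme widely used to mark astrocytes. It was at 258, 242 and 408 CPM on polyribosomes, against 152, 165 and 178 CPM in total RNA. The groups did not overlap, and polyribosome replicate 3 stood apart from the other two. These levels gave a log2 fold change of 0.88 (SE 0.21, adjusted p = 0.0147 in edgeR and 0.00103 in DESeq2), and with the block 0.82 (adjusted p = 8.84e-08). Of its 100-base exon stretches, 5.85% also occur in the antisense gene Gm15756, the largest such share among the 10. Its mitochondrial paralog Aldh1l2 was scarce, with 7.57 ± 1.03 CPM in the polyribosomal group and 5.87 ± 0.28 in total RNA, with a log2 fold change of 0.37 (adjusted p = 0.353). Of 9 aldolase, S100 and Aldh1 paralogs tested, 0 passed the threshold, with a median of 0.70. With the block 5 of them were higher, against 11.8% of all genes.

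Gfap (chromosome 11, 102887336 to 102900912, minus strand) forms the intermediate filaments of astrocytes, found mostly in the soma and main branches. It was at 762, 899 and 1204 CPM on polyribosomes, against 450, 611 and 658 CPM in total RNA. The groups did not overlap. The estimated log2 fold change was 0.74 (SE 0.21, adjusted p = 0.0305 in edgeR and 0.00532 in DESeq2), and with the block 0.73 (adjusted p = 1.27e-06). Vim, a second filament protein of these cells, had 0.69 (adjusted p = 0.0518), and the ratio of Gfap to Vim counts overlapped between groups (log2 difference 0.08 ± 0.24).

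S100b (chromosome 10, 76253853 to 76261159, plus strand) was at 267, 281 and 342 CPM on polyribosomes, against 179, 212 and 222 CPM in total RNA, again without overlap. A log2 fold change of 0.54 was estimated (SE 0.17, adjusted p = 0.0466), and with the block 0.53 (adjusted p = 3.14e-04). It overlaps Dip2a on the opposite strand, and Dip2a had a log2 fold change of -0.02 (adjusted p = 0.948). The related S100a1, which binds calcium in several cell types, had 0.77 (adjusted p = 0.0114), and S100a16 had 0.70 (adjusted p = 0.0178). The ratio of S100b to S100a1 counts was lower on polyribosomes in all 3 pairs, without overlap (log2 difference -0.22 ± 0.03). The paralogs at the upper end were S100a6 (0.98, adjusted p = 0.0176) and S100a13 (0.89, adjusted p = 0.0110), and at the lower end stood Aldh1a2 with 0.33 (adjusted p = 0.363) and Aldh1l2.

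Genes that mark reactive astrocytes, which swell and change their program after injury, were mostly scarce. Of 20 listed, 14 were tested, and Lcn2, Steap4, Timp1, C3, Cxcl10 and Ptx3 never exceeded 13 counts in a library. All 14 had a positive log2 fold change, against 50.1% of all genes. Past the threshold were 0, and 5 had an unadjusted p under 0.05, against 15.4% of all genes higher. The median was 0.46. With the block 3 were higher and 0 lower, against 11.8% and 13.2% of all genes. Hspb1, a small heat shock protein, had 1.23 (adjusted p = 0.0752) and Cd14, an innate immune receptor, had 0.95 (adjusted p = 0.0892). The filament protein Synm and the adhesion receptor Cd44 had 0.05 and 0.04 (adjusted p = 0.898 and 0.908).

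Aqp4 (chromosome 18, 15389394 to 15403684, minus strand) is the water channel of the endfeet, the astrocyte processes that wrap blood vessels. It was at 515, 668 and 582 CPM on polyribosomes, against 507, 660 and 479 CPM in total RNA. In CPM it was the only 1 of the 10 whose groups overlapped, and its log2 fold change was 0.10 (SE 0.18, adjusted p = 0.751, with the block 0.555). Scaled by total counts alone, its log2 fold change was -0.01 (unrounded -0.00566), a setting that also moved the median of all genes by -0.11. Kcnj10, the potassium channel of the same processes, had 0.27 (adjusted p = 0.324). The ratio of Aqp4 to Kcnj10 counts overlapped between the groups (log2 difference -0.16 ± 0.15 over 3 pairs). With an offset for GC content and length beside the block, Aqp4 had 0.51 (adjusted p = 3.67e-04).

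Gja1 (chromosome 10, 56377300 to 56390419, plus strand), connexin 43, joins astrocytes into a network. It was at 924, 984 and 888 CPM on polyribosomes, against 787, 861 and 556 CPM in total RNA. The groups lay close together apart from total RNA replicate 3, the shallowest library, with 581 counts of the gene. As plain shares of counts the groups overlapped, at 0.0817% to 0.0955% on polyribosomes and 0.0556% to 0.0886% in total RNA. The difference on the log2 scale was 0.34 (SE 0.19, adjusted p = 0.228, with the block 0.0181). Gjb6, connexin 30, averaged 171 ± 12.3 CPM in the polyribosomal group and 130 ± 2.99 in total RNA, with a log2 fold change of 0.39 (adjusted p = 0.101, with the block 0.00833). The ratio of both connexins overlapped between the groups. The 15 genes of the endfoot complex and gap junctions had 0 past the threshold and a median of 0.27. Of these, 11 were positive and 4 negative. With the block 6 were higher and 2 lower, against 11.8% and 13.2% of all genes. At the upper end were Mlc1, a membrane protein of astrocyte junctions (0.81, adjusted p = 0.0153), and the orphan receptor Gpr37l1 (0.75, adjusted p = 0.0187). At the lower end were the scaffold genes Dtnb (-0.90, adjusted p = 0.0182) and Dmd (-0.76, adjusted p = 0.0340).

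**Figure D2:**
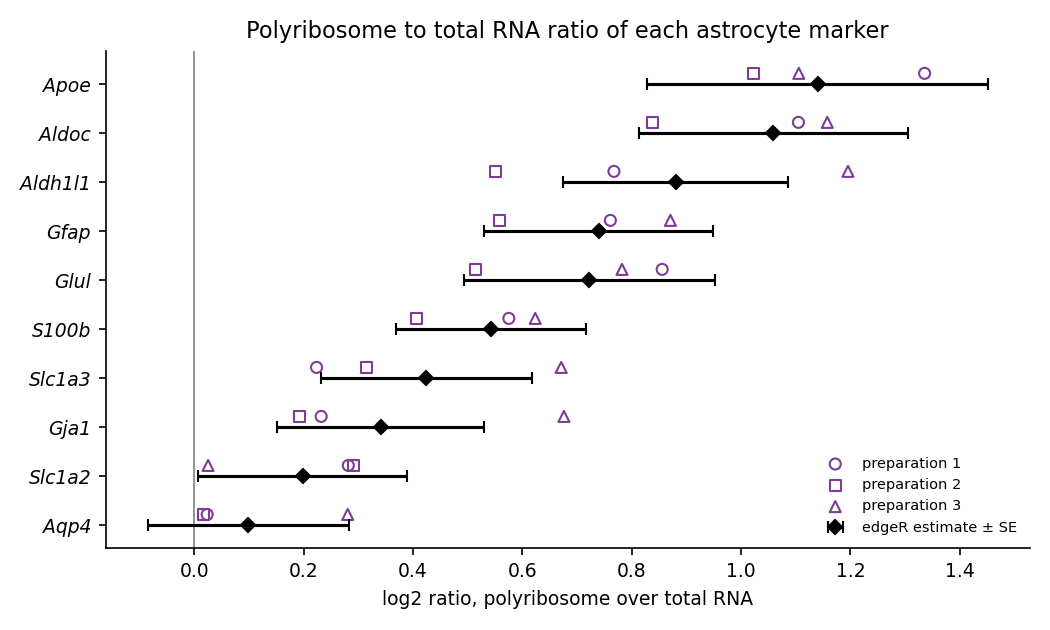
Log2 ratio of polyribosomal over total RNA for each marker, ordered by size. Black diamonds with bars give the edgeR estimate ± its standard error. Open symbols give the ratio of TMM-scaled CPM within each of the 3 preparations, all of which lie above 0.

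Levels of different genes were compared per kilobase of exon. In both groups the order was the same, from Apoe through Slc1a2, Glul, Aldoc, Slc1a3, Gja1, Gfap, S100b and Aqp4 to Aldh1l1. Apoe was at 5316 ± 2188 CPM per kilobase on polyribosomes and 2414 ± 1082 in total RNA (SD, n = 3). Slc1a2 followed at 2638 ± 131 and 2299 ± 149. In total RNA the ranges of these neighbours overlapped, whereas on polyribosomes every Apoe value was above every Slc1a2 value. At the other end Aldh1l1 was at 72.6 ± 21.9 and 39.5 ± 3.15, next to Aqp4 with ranges of 87.2 to 113 and 81.1 to 112. Neighbours whose ranges overlapped in both groups were Glul with Aldoc and Gfap with S100b. Among 12238 genes with a known length, Apoe ranked 2 on polyribosomes and 7 in total RNA, Slc1a2 ranked 6 and 8, and Aldh1l1 ranked 680 and 1144.

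The ratio of a marker to Slc1a2 within a library does not depend on scaling, and its mean difference was the largest for Apoe. On the log2 scale, the Apoe to Slc1a2 ratio was higher on polyribosomes by 1.05, 0.73 and 1.08 in the 3 pairs (mean 0.96 ± 0.19, SD), but the ratios overlapped between the groups, with -2.17 as the lowest on polyribosomes and -2.15 as the highest in total RNA. For Aldoc the differences were 0.82, 0.55 and 1.13 (0.83 ± 0.29), and all polyribosomal ratios lay above all total RNA ratios. For Slc1a3 they were -0.06, 0.03 and 0.65 (0.20 ± 0.38), so the ratio of the transporters to each other did not differ beyond its spread. The Glul to Gfap ratio had the smallest mean difference in size of all marker pairs, -0.01 ± 0.10. Other ratios had a smaller spread, such as Aldoc to Gfap with 0.30 ± 0.03. An exact test over 3 pairs cannot reach a p under 0.05, and these ratios were not tested.

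The size of the fold change followed base composition across the 10 genes. GC content of the transcript ran from 41.4% in Aqp4 to 59.5% in Apoe, around a median of 50.6% for all genes tested. Across the 10 markers the log2 fold change had a Pearson correlation of 0.91 and a Spearman correlation of 0.94 with GC content, and of -0.63 and -0.68 with log2 transcript length. Over all 12238 genes with an annotated transcript the Pearson correlations were 0.53 with GC content and -0.32 with length. These are descriptions across genes, which come from the same 6 libraries and are not independent replicates. With an offset for GC content and length together with the block, the log2 fold changes of the 10 drew together, from a range of 0.10 to 1.14 (SD 0.35) to a range of 0.49 to 0.98 (SD 0.15). The median was then 0.59. In that fit all 10 markers passed the threshold, Slc1a2 with 0.59 (adjusted p = 0.00127) and Aqp4 included, against 8.71% of all genes and 28.2% of the abundant ones. Aldoc was then the highest at 0.98, and Apoe was at 0.67. With the offset alone, without the block, 0 of the 10 passed, against 0.319% of all genes.

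**Figure D3:**
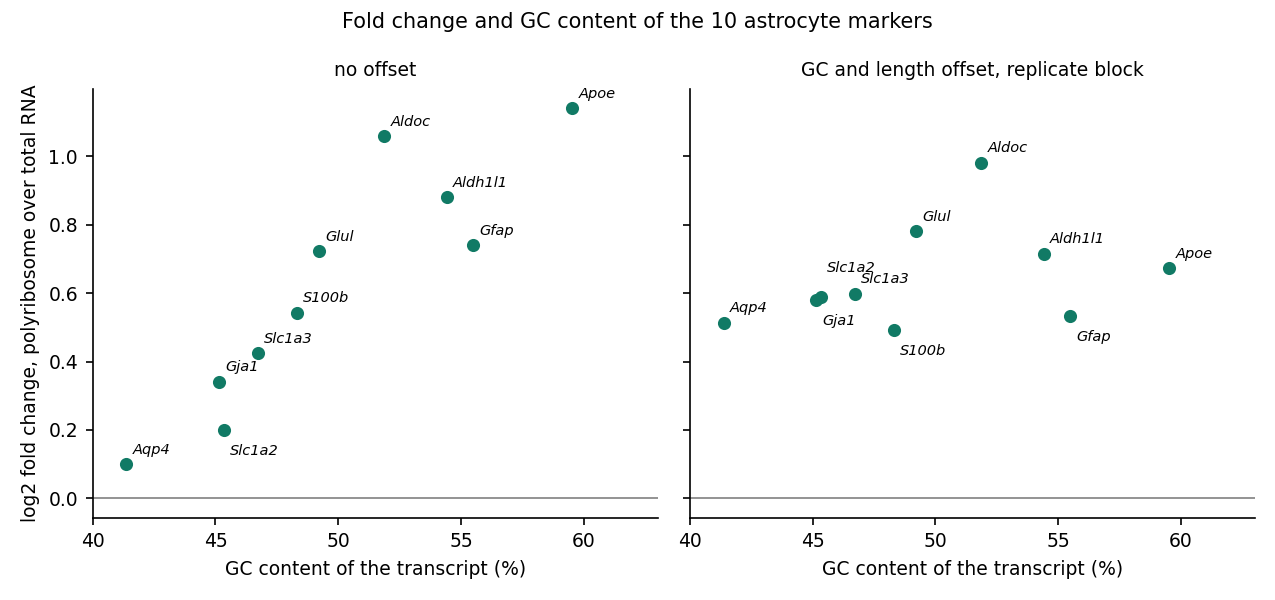
Log2 fold change of the 10 markers against the GC content of the transcript in percent, without an offset (left) and with an offset for GC content and length beside the replicate block (right). On the left the values range from 0.10 for Aqp4 to 1.14 for Apoe, and on the right from 0.49 for S100b to 0.98 for Aldoc.

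Preparation 3 differed from the others in part of the markers, in both groups. Its Apoe level was above the mean of preparations 1 and 2 by 0.95 on the log2 scale on polyribosomes and by 1.03 in total RNA. For Aldoc the differences were 0.77 and 0.58, for Glul 0.63 and 0.54, and for Gfap 0.54 and 0.33. These 4 of the 10 passed an F-test of the preparation term at an adjusted p under 0.01 (edgeR, 5.80e-08 for Apoe), against 8.74% of all genes. That test takes any difference among the 3 preparations and does not single out preparation 3. Slc1a2 had differences of -0.11 and 0.15 and Gja1 of -0.10 and -0.57, and neither passed. In each group the summed oligodendrocyte markers had their lowest share in preparation 3, 1.01% on polyribosomes and 0.790% in total RNA. The summed markers of ependyma and choroid plexus were at their highest, 0.0843% and 0.0490%. Ttr made up most of this sum, with 4302 and 491 counts in preparation 3. Foxj1 had 25 and 6 there and Kl 137 and 15. In CPM, preparation 3 held the lowest polyribosomal value of Foxj1 (5.13) and the lowest total RNA value of Kl (14.3). In the opposite group each was at its highest there (5.74 for Foxj1, 28.1 for Kl). The part of these other cells' markers in the astrocyte marker values was not tested. With both libraries of preparation 3 left out, 5 of the 10 markers passed the threshold without a block, against 3.58% of all genes. These were Glul, Gfap, Aldh1l1, Aldoc and Apoe, with log2 fold changes from 0.64 to 1.16.

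**Figure D4:**
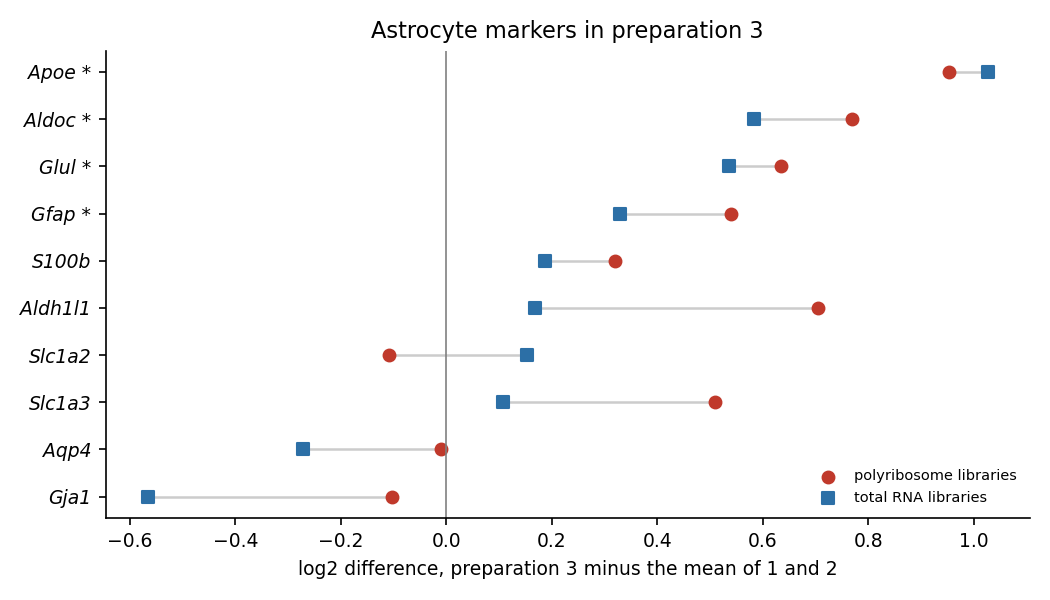
Log2 difference between preparation 3 and the mean of preparations 1 and 2 for each marker, in polyribosomal libraries (red circles) and in total RNA libraries (blue squares). An asterisk marks the 4 genes past an adjusted p of 0.01 for the preparation term, a test of any difference among the preparations. Apoe lies about equally far to the right in both groups.

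A wider list of 49 astrocyte genes, without the 10 markers, was also tested. It shares Mlc1, Gpr37l1, Hepacam, Gjb6 and Kcnj10 with the endfoot and gap junction list and Clu with the lipoprotein list, so these lists are not separate. All 49 had a positive log2 fold change, against 50.1% of all genes, with a median of 0.65, and 38 of the 49 did not overlap between the groups, against 17.4%. Past the threshold were 4, all higher, against 0.71% of all genes. Ntsr2, a neurotensin receptor, had a log2 fold change of 1.05 (adjusted p = 0.00386). Mfge8, a secreted bridging protein in phagocytosis, had 1.02 (adjusted p = 0.00937). The amino acid transporter Slc7a10 had 0.99 (adjusted p = 0.00751) and the proteoglycan Cspg5 had 0.84 (adjusted p = 0.00765). Of the fits that left out 1 library, Cspg5 passed in none, Mfge8 only without polyribosome replicate 1 and Slc7a10 only without polyribosome replicate 3. Ntsr2 passed in 3, those without polyribosome replicate 1, polyribosome replicate 3 or total RNA replicate 3. With the block 38 of the 49 were higher, against 11.8% of all genes, and 0 were lower. The metal-binding protein Mt3 had the largest value, 1.06 (adjusted p = 0.0281), and the bicarbonate transporter Slc4a4 (0.12, adjusted p = 0.677) and the thyroid hormone enzyme Dio2 (0.11, adjusted p = 0.783) had the smallest. Summed, the 49 genes took between 4.19% and 5.10% of counts on polyribosomes and between 3.06% and 3.20% in total RNA.

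Markers of other cells were read beside the astrocyte genes. The 8 oligodendrocyte markers had a median of 0.38 and 1 past the threshold, the myelin tight junction gene Cldn11. Its log2 fold change was 0.83 (adjusted p = 0.00751, and past the threshold in none of the fits that left out 1 library). Medians were 0.74 for 4 markers of oligodendrocyte precursors, 0.40 for 10 of microglia, 0.34 for 6 of endothelium and 0.65 for 3 of ependyma and choroid plexus, with 0 past the threshold in each. At an unadjusted p under 0.05 these 4 lists had 3, 3, 2 and 1 genes, all higher, against 15.4% of all genes. Foxj1 gave the median of ependyma and choroid plexus. This gene was scarce, with 42, 47 and 25 counts on polyribosomes and 10, 14 and 6 in total RNA. Its groups overlapped in CPM. The other values of that list were 0.81 for Ttr and 0.02 for Kl. With the block 4 of the 8 oligodendrocyte markers were higher, 3 of the 4 of precursors, 4 of the 10 of microglia, 1 of endothelium and 1 of ependyma and choroid plexus, with 0 lower in these lists, against 11.8% of all genes higher. The 12 neuronal markers had a median of 0.03, with 7 positive and 5 negative and 0 past the threshold. At an unadjusted p under 0.05, 2 were higher and 2 lower, against 15.4% and 17.1% of all genes. With the block 2 were higher and 2 lower, against 11.8% and 13.2% of all genes. Summed microglial markers took between 0.0960% and 0.108% of counts on polyribosomes and between 0.0627% and 0.0886% in total RNA, and no marker of any list was at 0 in every library. The summed oligodendrocyte share was between 1.01% and 1.49% on polyribosomes and between 0.790% and 1.19% in total RNA. Endothelial markers were at 0.0252% to 0.0437% and 0.0282% to 0.0288%, and neuronal ones at 1.17% to 1.34% and 1.21% to 1.29%. The astrocyte values thus stood beside positive medians in all lists of other glial and vascular cells. Within pairs the endothelial median was 0.26, -0.13 and 0.90, so it was not positive throughout. The medians of oligodendrocytes, their precursors, microglia and ependyma were positive in each pair. The part of those cells in the astrocyte values was not tested.

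**Figure D5:**
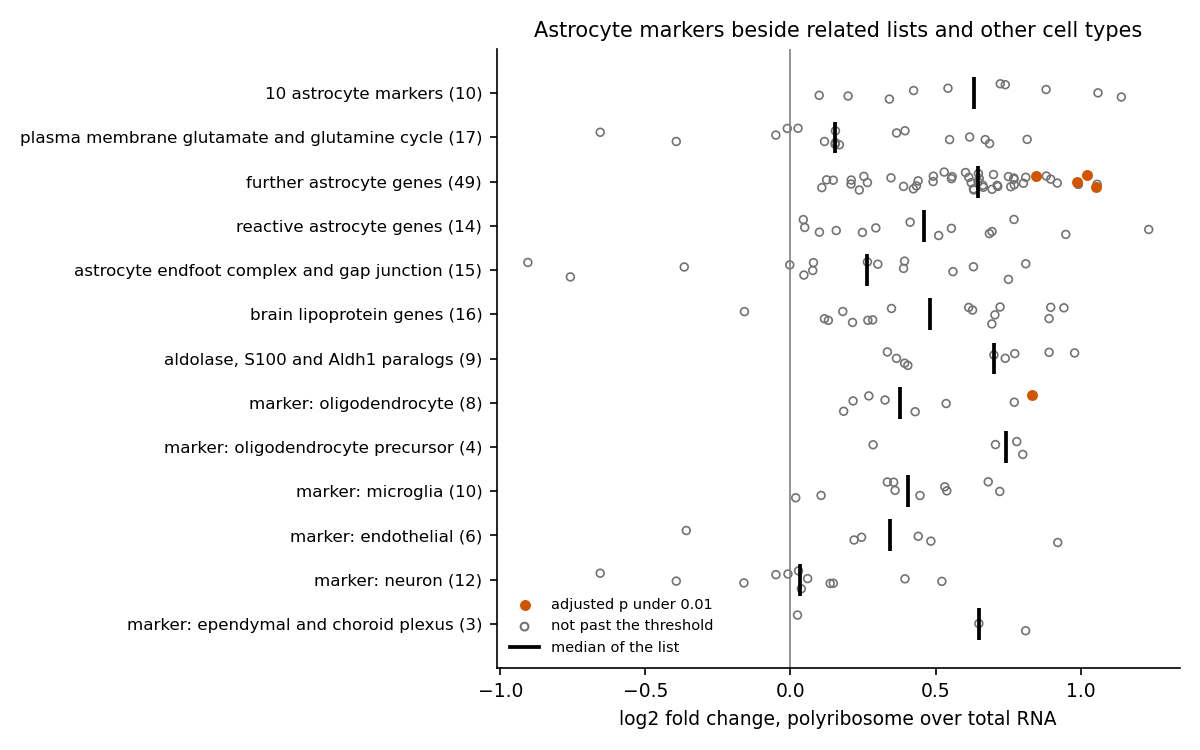
Log2 fold change of every tested gene in each list, with the number tested in brackets. Black bars are medians and filled orange points are genes past an adjusted p of 0.01. The 10 astrocyte markers (median 0.63) and the 49 further astrocyte genes (0.65) lie wholly to the right of 0, and the neuronal markers (0.03) lie on both sides.

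The genes whose profile over the 6 libraries was most like the mean of the 10 markers were found by the root mean square distance of centred log2 CPM among 6640 genes with a mean of at least 20 CPM. They were Prdx5 (distance 0.03), 1810037I17Rik (0.03), Ctsa (0.04), Ly6e (0.04) and Atp1b2 (0.05), with log2 fold changes from 0.55 to 0.69. Atp1b2 is also on the wider astrocyte list. Of the 10 markers themselves, S100b was nearest to their mean with a distance of 0.05, and Apoe was the farthest with 0.42.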

How the data were processed

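RNA-seq was read from 6 libraries, 3 of polyribosomal RNA and 3 of total RNA. Per the labels and the study's methods ribosomal RNA was removed before library preparation and reads were aligned with STAR 2.5.2b to GRCm38. The authors deposited raw whole-number counts for each gene of Gencode vM6 basic. The strand setting of the counting is not given in the sources used here, so opposite-strand overlaps are treated as uncertain. The same deposited table holds the authors' own DESeq2 comparison, a mean normalized signal, a log2 fold change with its error, a Wald score and p-values, none of which was used.

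The counts were analysed with edgeR 4.0.16 in R 4.3.3, with TMM factors, filterByExpr and an unpaired quasi-likelihood test of the 2 groups, over 12255 genes, with Benjamini-Hochberg adjustment and a threshold of 0.01. Log2 CPM for profiles used a prior count of 2. Alternatives were DESeq2 1.42.0, other scalings and filters, a block for the replicate number, an offset per library for GC and length of the transcript (Gencode vM21, 99.9% of tested genes, spline with 5 degrees of freedom) and leaving out each library. Leaving out preparation 3, the threshold of 0.05 and the test of the preparation term were added after the data were seen. Deviations of same-numbered libraries from their group means correlated across genes at 0.37, 0.26 and 0.38, each library best with its own number, and the methods divide a preparation into aliquots, and the numbers were therefore read as pairs. Replicates differed by more than sampling noise. Where each number was not drawn from separate animals, p-values measure only the spread between these samples. The procedure was tested on simulated data.

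The 10 markers and all lists were chosen with earlier results of these data known. Named from each list were the genes past the threshold (at most 4 in each direction) and the 2 largest and 2 smallest log2 fold changes, beside set counterparts of the markers and the 5 most similar profiles. A few items of the lists are not reported here and were left out of their counts. Plpp3 of the wider astrocyte list had no entry under that name. The same gene was tested on that list under its older name Ppap2b. It had a log2 fold change of 0.71 (adjusted p = 0.0287 in edgeR).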

Additional observations from a re-analysis of the deposited data

How the results depend on the processing

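The libraries with the same replicate number were paired, and the block for the preparation moved the number of markers past the threshold from 0 to 7, of all genes from 87 to 1442 higher and from 289 to 1623 lower, of related genes from 4 to 58 higher and from 0 to 4 lower, and of other cells' markers from 1 to 15 higher and from 0 to 2 lower. Gad1, Gad2 and Slc17a7 belong to both the related genes and the other cells' markers. With the block, Slc17a7 was therefore counted as higher and Gad1 and Gad2 as lower in both. The offset for GC content and length with the block gave 10 markers, 1066 and 916 genes, 58 and 1 related genes and 10 other markers. The offset without the block gave 39 and 118 genes, 1 lower related gene and 0 other markers. DESeq2 gave 3 markers, 321 higher genes, 31 and 1 related genes and 3 other markers. No filter on low counts gave 5 markers, 476 and 566 genes, 33 and 2 related genes and 8 other markers. Scaling by total counts alone gave 42 higher genes and 0 other markers, and turned Aqp4 to -0.00566. Without both libraries of preparation 3 there were 5 markers, 449 and 658 genes, 34 and 2 related genes, and 6 higher and 1 lower other markers. A threshold of 0.05 gave 6 markers. Leaving out each library gave 0 to 2 markers higher (2 without total RNA replicate 3), 0 to 61 higher and 22 to 208 lower genes (0 and 22 without total RNA replicate 2), 0 to 4 higher and 0 lower related genes, and 0 other markers. The cause of these differences was not tested.

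The median log2 fold change of the 10 markers was between 0.46 (without polyribosome replicate 3) and 0.72 over these fits. Of 160 alternative values for single markers, 127 kept their direction and side of the threshold, 32 newly passed it and 1 changed sign. Depth limits the scarce genes most: 6 reactive astrocyte genes were too low to test, and the shallowest library, total RNA replicate 3, had 1044955 counts. Gene models of vM21 stood in for vM6, and 7 of the 10 markers had the same coordinates in both.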
